A study of Mus musculus with 14 samples.

Results

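Aminoacyl-tRNA synthetases were examined in mouse BFU-E, the burst-forming progenitors at an early step of the red cell lineage, cultured with 1 of 2 compounds. The 39 genes were taken by name: 20 cytosolic enzymes, 16 mitochondrial enzymes whose symbols end in 2, and 3 scaffold proteins of the multi-synthetase complex. They stand among 23647 gene symbols kept in 1 set of libraries and 54632 in the other, and every one of the 39 was found once in each set. RNA was sequenced in 12 libraries from BFU-E of C57BL/6 fetal liver, in 4 groups of 3. The OB set holds cells given compound OB at 100 µM and their own DMSO solvent controls, and the PD set holds cells given compound PD at 3 nM and a separate group of DMSO controls. The cells of all 4 groups were grown in StemSpan SFEM II, and the age of the embryos, the time in culture and what the compounds are were not stated in the sources used here. The labels do not say that replicates came from separate cultures or animals, so p-values measure only the spread between these libraries, which may be technical.

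Each synthetase joins 1 amino acid to its tRNAs, the step that fixes which amino acid a codon is read as. Cytosol and mitochondria use separate enzymes for most amino acids, all encoded in the nucleus, while Gars and Kars make both forms from 1 gene. In the cytosol several synthetases are held in a complex by the scaffold proteins Aimp1, Aimp2 and Eef1e1, and Eprs carries the activities for glutamate and proline in 1 chain. Many cytosolic synthetase genes are targets of ATF4, the transcription factor of the amino acid response, whose translation rises when uncharged tRNA activates the kinase Eif2ak4 (GCN2). Red cell precursors make large amounts of globin and depend on this supply of charged tRNA.

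Values are FPKM, in which fragment numbers are divided by gene length and library size, so genes can be compared for level. They come with no counts, and the depth is unknown. All 12 erythroid progenitor markers checked (Kit, Gata1, Gata2, Klf1, Epor, Tfrc, Myb, Lmo2, Tal1, Gfi1b, Nfe2 and Car1) were at 1 FPKM or more in every library. Their sums were 1786 to 1946 FPKM in OB DMSO and 1859.9 to 1889 FPKM with compound OB. In the PD set they were 1585 to 1961 FPKM in DMSO and, with no overlap, 1456 to 1572 FPKM with compound PD. The 10 neutrophil and granulocyte precursor markers summed to between 11654 and 17619 FPKM in PD DMSO and between 29771 and 37511 FPKM with compound PD. All 10 were at 1 FPKM or more in every library. The same held for 7 of 8 mast cell and basophil markers and for 8 of 8 megakaryocyte markers. Mast cell and basophil sums were 816 to 1559 FPKM against 1379 to 2832 FPKM. Megakaryocyte sums were 2332 to 4604 FPKM against 4284 to 7582 FPKM, and both sums overlapped between the groups. Macrophage markers summed to 12.5 to 23.7 FPKM against 24.0 to 30.7 FPKM, with 3 of 8 at 1 FPKM or more in every library and C1qa at 0 with the compound. Endothelial and stromal markers summed to 12.3 to 17.2 FPKM against 17.7 to 29.6 FPKM, with 1 of 6 at 1 FPKM or more and Cdh5 and Col3a1 at 0 in DMSO. In the OB set the granulocyte markers summed to 145 to 580 FPKM in DMSO and 165 to 485 FPKM with compound OB, so the groups overlapped. Hepatocyte markers summed to at most 2.70 FPKM and lymphoid markers to at most 4.29 FPKM in any library. In such bulk libraries fewer cells of a type and less RNA per cell cannot be told apart.

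The promoters of 5 cytosolic genes carried the motif that ATF4 binds with a C/EBP partner, and these are shown because they include Gars and Aars, the 2 genes with the smallest p-values in the comparison with compound OB. RefSeq promoters on GRCm38.p6 (250 bases before to 50 after the start) were matched for 29 of the 39 genes. They covered 12 cytosolic enzymes, 14 mitochondrial enzymes and all 3 scaffold proteins. The motif TGATGNAA was searched on both strands. It was in the promoters of Aars, Gars, Iars, Tars and Yars, 5 of the 12 cytosolic genes matched. None of the 14 mitochondrial and 3 scaffold genes held it, against 4.51% of 27025 mouse genes with a promoter. In the list of 35 amino acid response genes described further down, 9 of the 32 matched promoters held it. Capitals mark the match, which in Aars, Gars, Iars and Tars reads on the opposite strand. The stretches lie at chr8:111033592-111033841 on the plus strand for Aars, chr6:55037751-55038000 on the plus strand for Gars and chr15:11399659-11399908 on the minus strand for Tars, each the 250 bases before the start. For Iars and Yars, whose match lies past the start, 30 bases are given, from chr13:49682126-49682155 and chr4:129189895-129189924, both on the plus strand.
Aars promoter: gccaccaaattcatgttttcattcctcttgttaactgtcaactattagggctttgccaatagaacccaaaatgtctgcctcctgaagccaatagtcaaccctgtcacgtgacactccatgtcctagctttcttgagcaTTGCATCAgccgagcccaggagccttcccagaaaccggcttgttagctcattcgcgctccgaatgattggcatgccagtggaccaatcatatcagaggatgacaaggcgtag
Gars promoter: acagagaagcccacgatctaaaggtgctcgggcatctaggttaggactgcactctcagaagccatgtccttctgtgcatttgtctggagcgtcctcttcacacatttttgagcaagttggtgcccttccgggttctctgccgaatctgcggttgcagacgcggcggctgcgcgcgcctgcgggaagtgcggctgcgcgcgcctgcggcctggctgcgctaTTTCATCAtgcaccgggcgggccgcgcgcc
Tars promoter: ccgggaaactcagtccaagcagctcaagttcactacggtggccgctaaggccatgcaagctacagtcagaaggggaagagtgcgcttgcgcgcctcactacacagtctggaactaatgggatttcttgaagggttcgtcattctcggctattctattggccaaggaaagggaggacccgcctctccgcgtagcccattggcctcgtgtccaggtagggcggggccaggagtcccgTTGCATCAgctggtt
Iars start: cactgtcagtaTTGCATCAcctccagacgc
Yars start: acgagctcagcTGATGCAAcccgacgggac
The Aars and Yars stretches lie inside the annotated spans of their genes, which begin at 111027778 on chromosome 8 and at 129189734 on chromosome 4. Aars held a second match past the start, which is not printed. The full cAMP response element TGACGTCA, the site CREB is known for, was in 0 of the 29 genes matched and in 2.03% of all genes with a promoter. Its shorter form TGACG was in 4 of the 12 cytosolic, 2 of the 3 scaffold and 5 of the 14 mitochondrial genes, against 23.0% of all genes. A match is a string of letters and not a measured site, and no match says only that these letters are not in the window.

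In the DMSO controls the cytosolic enzymes were more abundant than the mitochondrial ones other than Lars2. Their mean levels ran from 34.4 to 249 FPKM in the OB set, with a median of 115 FPKM, and from 38.0 to 170.0 FPKM in the PD set, with a median of 78.6 FPKM. The mitochondrial enzymes other than Lars2 had mean levels of 4.07 to 59.9 FPKM, with a median of 13.3 FPKM, in the OB set and 3.08 to 42.2 FPKM, with a median of 12.1 FPKM, in the PD set. The 3 scaffold genes had a median of 134 FPKM in the OB set, above that of the cytosolic enzymes, and of 45.3 FPKM in the PD set, below it. Across the 39 genes the order of the DMSO means was alike in both sets (Spearman's rho 0.896 across genes, which share libraries and are not independent replicates). The highest mean levels in PD DMSO were those of Lars2, Sars and Nars, and the lowest those of Mars2, Wars2 and Pars2.

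Sars, which charges serine tRNAs and also the selenocysteine tRNA, stood at 193, 169 and 148 FPKM in the 3 PD DMSO libraries, a mean of 169.95 ± 22.2 FPKM (SD, n = 3). Nars, the asparagine enzyme, stood at 146, 150.07 and 149 FPKM there, a mean of 148.6 ± 1.87 FPKM (SD, n = 3). Gars, the glycine enzyme, followed at 147.3 ± 16.1 FPKM (SD, n = 3), and neither neighbour in this order differed from the next by more than the spread of its libraries. At the other end Mars2, the mitochondrial methionine enzyme, stood at 2.18, 3.67 and 3.38 FPKM, Wars2, for tryptophan, at 2.43, 4.96 and 3.40 FPKM, and Pars2, for proline, at 1.81, 6.73 and 3.14 FPKM. These 3 overlapped, and in each the first DMSO library was the lowest.

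Among the 17 pairings of a cytosolic with a mitochondrial enzyme for the same amino acid, 16 had the higher DMSO mean in the cytosol in both sets, as the plot of paired levels shows. In the OB set the ratio of DMSO means ran from 1.497 for Iars over Iars2 to 33.4 for Eprs over Pars2, and was 17.6 for Aars over Aars2. For the PD set it ran from 1.61 for Farsa over Fars2 to 23.1 for Aars over Aars2. Lars over Lars2 was the exception, at 0.063 and 0.11.

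**Figure D1:**
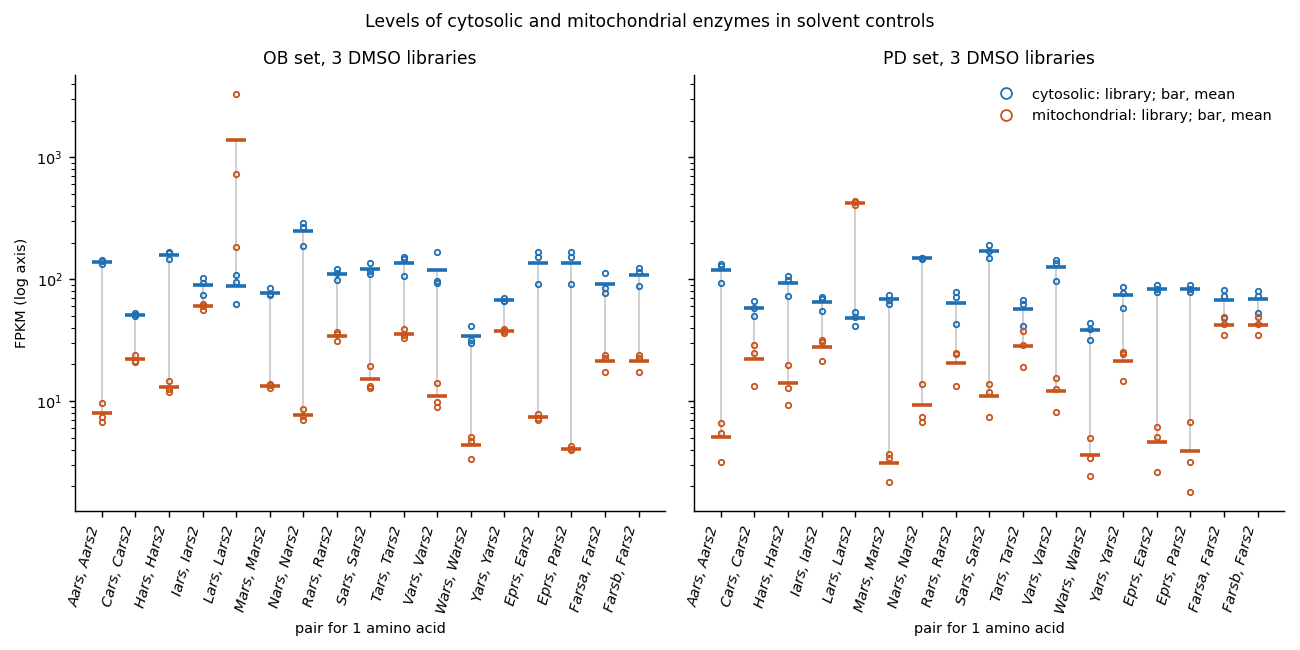
Levels in FPKM (log axis) of each cytosolic enzyme (blue) and its mitochondrial counterpart (orange) in the 3 DMSO libraries of each set, with circles for libraries and bars for means; Eprs and Fars2 appear in 2 pairings each. The blue bar is above the orange one in 16 of 17 pairings in both panels, and the Lars2 libraries of the OB set spread from 183 to 3287 FPKM.

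The 2 subunits of cytosolic phenylalanyl-tRNA synthetase, Farsa and Farsb, form 1 enzyme, and their ratio was read in each library (a comparison chosen after the values were seen). In the OB set Farsa over Farsb was 1.27, 0.675 and 0.693 in DMSO libraries 1 to 3, and 1.19, 0.802 and 0.752 with compound OB. The libraries numbered 1 were therefore above the others in both groups. Its values in the PD set were 0.911, 1.03 and 1.01 in DMSO, and 1.39, 1.03 and 0.976 with compound PD.

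Compound OB. The question of the comparison is what compound OB does to BFU-E gene expression, and the series title names regulation of self-renewal as the topic. Among the cytosolic enzymes 17 of 20 had a log2 fold change above 0, with a median of 0.15 and a range from -0.06 for Dars to 0.34 for Wars. The mitochondrial enzymes had a median of 0.05, with 15 of 16 above 0, and the scaffold proteins a median of -0.02, with 1 of 3 above 0. Over all 10104 genes tested the median was 0.03 and 58.7% were above 0. None of the 39 genes passed the test, limma on log2(FPKM + 1) with Benjamini-Hochberg adjustment over all genes at 0.05, and neither did any other gene (0% called). At an unadjusted p under 0.05, 4 of the 39 were higher (Gars, Aars, Cars and Wars) and 0 lower, against 2.45% of all genes higher and 1.23% lower. After median-ratio scaling the cytosolic split was 16 higher and 4 lower with a median of 0.11, the mitochondrial split 9 and 7 with a median of 0.02, and the scaffold proteins were all 3 lower. Quantile normalization gave 16 and 4 with 0.12 for the cytosolic class and 8 and 8 with 0.01 for the mitochondrial class.

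Gars was at 195, 195 and 216 FPKM in OB DMSO 1 to 3 and at 234, 237 and 245 FPKM in compound OB 1 to 3. All 3 treated libraries lay above all 3 controls, a log2 fold change of 0.24 ± 0.08 (SE). Aars, for alanine, was at 143, 133 and 142 FPKM in DMSO and at 162, 167 and 159 FPKM with the compound. These groups did not overlap either, with a log2 fold change of 0.22 ± 0.07 (SE).

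Cars, the cysteine enzyme, was at 50.5, 50.2 and 53.2 FPKM in DMSO and 57.5, 62.7 and 60.1 FPKM with the compound. All treated libraries were higher, a log2 fold change of 0.23 ± 0.08 (SE). Mars, for methionine and a member of the complex, was at 74.9, 73.9 and 84.2 FPKM in DMSO and 84.6, 97.5 and 87.6 FPKM with the compound. The lowest treated library of Mars lay just above the highest control, and the log2 fold change was 0.21 ± 0.10 (SE).

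Wars, for tryptophan, was at 41.6, 29.8 and 31.8 FPKM in DMSO and 43.3, 45.4 and 41.1 FPKM with the compound. Here DMSO 1 lay among the treated libraries and the other 2 controls below them, a log2 fold change of 0.34 ± 0.14 (SE). The adjusted p of each of these 5 genes was 1.00 with limma, Benjamini-Hochberg adjusted. The 95% interval of the log2 fold change was 0.06 to 0.43 for Gars, 0.04 to 0.40 for Aars and 0.01 to 0.67 for Wars.

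Counted over the 39 genes, 6 had no overlap between the groups and were higher with compound OB (Aars, Cars, Gars, Mars, Yars and Mars2), against 5.32% of all genes, and 0 were lower, against 3.4%. In the OB set only the libraries numbered 1 clearly deviated together, and numbers 2 and 3 are not shown to be pairs. Matched by number all the same, 18 of the 39 genes were higher with the compound in all 3 same-numbered pairs, against 23.2% of all genes. None (0) was lower in all 3, against 16.7%. Of the 18, 13 were cytosolic and 5 mitochondrial (Iars2, Mars2, Rars2, Tars2 and Vars2). After median-ratio scaling 12 of 20 cytosolic genes were higher in all 3 pairs and 2 were lower, against 23.0% and 20.6% of all genes, while 5 mitochondrial genes were higher in all 3 pairs and none lower.

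With the replicate number as a block, 12 of the 39 genes were higher at an unadjusted p under 0.05 and 0 lower, against 9.84% and 5.07% of all genes. They were Gars, Aars, Cars, Lars, Eprs, Wars, Yars, Vars, Mars and Iars of the cytosolic class and Tars2 and Vars2 of the mitochondrial class. The smallest adjusted p among the 39 was then 0.179, for Gars (limma with the block, Benjamini-Hochberg adjusted), and 7 genes of the whole table were called (0.0693%).

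**Figure D2:**
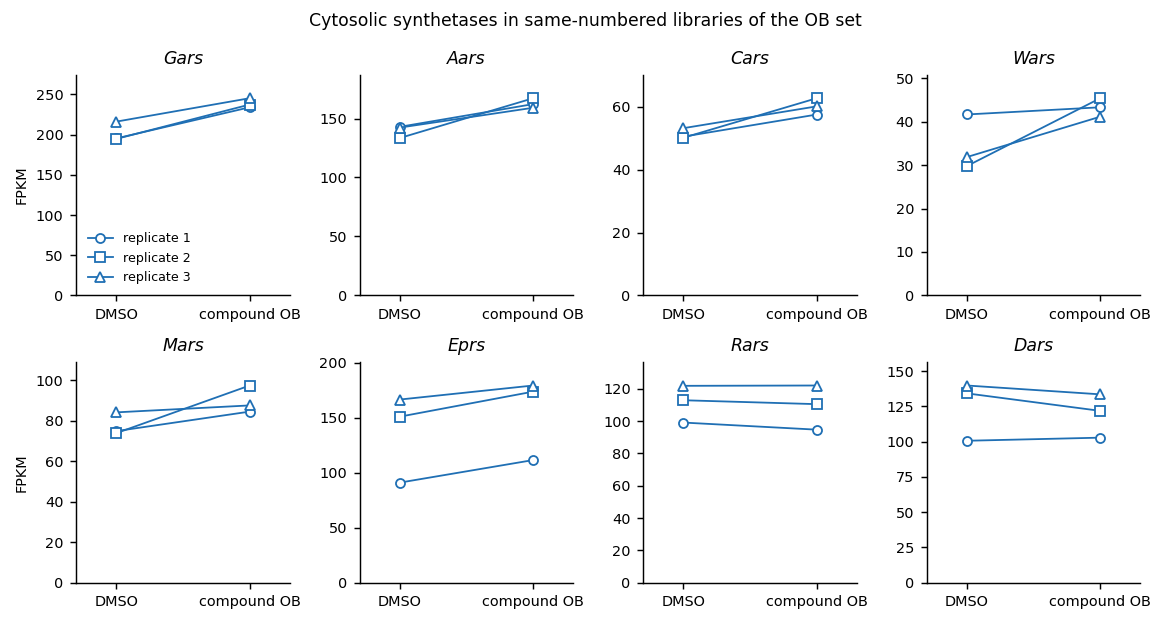
FPKM of 8 cytosolic enzymes in the OB set, with a line from each DMSO library to the compound OB library of the same number. In Gars, Aars, Cars, Wars, Mars and Eprs the treated library is the higher one on all 3 lines, and in Rars and Dars on 1 of 3.

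Libraries numbered 1 stood apart over all genes tested, where their deviations from the group means correlated at 0.83, and also among these genes. OB DMSO 1 was the lowest of the 3 controls in 19 of the 39 genes, against 38.7% of all genes. In 14 of 20 cytosolic genes OB DMSO 1 was below the mean of OB DMSO 2 and 3, and 32 of the 39 genes lay on the same side in DMSO and in compound OB. The share of all genes was not computed for these counts. Eprs, singled out after its values were seen, was at 91.0, 151 and 167 FPKM in DMSO and at 112, 174 and 179 FPKM with the compound. Both libraries numbered 1 were low, and the treated library was higher in each pair. The log2 fold change was 0.20 ± 0.28 (SE), with an SE of 0.06 when the replicate number was a block. Vars, for valine, went the other way at 168, 93.5 and 96.7 FPKM in DMSO and 175, 146 and 116 FPKM with the compound. Its libraries numbered 1 were the high ones, and the log2 fold change was 0.32 ± 0.26 (SE), with an SE of 0.11 with the block.

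The calls depended on these libraries. Without both libraries numbered 1, and with the block kept, 6 of the 39 genes were called higher (Aars, Gars, Vars, Wars, Sars2 and Vars2). That fit keeps only the libraries numbered 2 and 3 and takes same-numbered ones as pairs. The correlations between libraries, given under the processing, do not show that they are pairs, so these calls rest on an unproven pairing. The smallest adjusted p was 0.00972, for Wars (limma with the block). In that fit of fewer libraries 963 of 9998 genes were called higher, and 11.3% were called in either direction. The cytosolic median was then 0.14, close to that of all libraries. Leaving out OB DMSO 1 alone, which unbalances the pairs, brought the cytosolic median to 0.01, with 13 genes higher and 7 lower. What sets these libraries apart was not tested.

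Of the other genes with the ATF4 motif, Yars was at 70.3, 66.4 and 66.4 FPKM in DMSO and 77.5, 76.7 and 73.0 FPKM with compound OB. Its groups did not overlap, and the log2 fold change was 0.16 ± 0.08 (SE). Iars, for isoleucine, was at 74.2, 93.0 and 102 FPKM in DMSO and 83.2, 107 and 106 FPKM with the compound. It overlapped across the groups and was higher in each same-numbered pair, at 0.14 ± 0.15 (SE). Tars, for threonine, was at 107, 147 and 151 FPKM and then 112, 145 and 154 FPKM, nearly the same in each pair, at 0.02 ± 0.18 (SE).

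The mitochondrial enzymes ranged from genes with a visible difference in pairs to genes with almost none, with others between. Sars2 was at 19.4, 12.9 and 13.3 FPKM in DMSO and 19.2, 19.4 and 16.15 FPKM with compound OB. It was higher in 2 of 3 pairs, a log2 fold change of 0.27 ± 0.17 (SE). Tars2 was at 33.1, 35.1 and 39.2 FPKM in DMSO and 34.9, 43.0 and 44.5 FPKM with compound OB. The treated library was higher in each pair while the groups overlapped, a log2 fold change of 0.18 ± 0.13 (SE). Vars2 was at 13.95, 8.98 and 9.91 FPKM and then 14.9, 14.6 and 11.8 FPKM, at 0.32 ± 0.18 (SE), and like Vars it was highest in the libraries numbered 1. Mars2 was at 13.8, 13.5 and 12.7 FPKM and then 13.96, 16.0 and 15.4 FPKM, with no overlap but a gap between the groups far smaller than their spread. Iars2 and Rars2, although higher in all 3 pairs, had log2 fold changes of 0.01 each, with 95% intervals of -0.20 to 0.23 and -0.25 to 0.27.

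Some cytosolic enzymes showed little difference, with intervals that still allow a modest one. Dars, for aspartate, had a log2 fold change of -0.06 (95% interval -0.43 to 0.32), Rars, for arginine, -0.03 (-0.33 to 0.27) and Hars, for histidine, -0.02 (-0.22 to 0.18). The 8 enzymes bound in the complex had a median of 0.12 with 6 above 0, and the 12 outside it a median of 0.15 with 11 above 0. The scaffold genes lay close to 0: Aimp1 at -0.02 (95% interval -0.31 to 0.28) and Eef1e1 at -0.03 (-0.31 to 0.24). Among cytosolic genes with a matched promoter, the 5 with TGATGNAA had a median of 0.16 with 3 not overlapping. The 7 without it had a median of 0.07 with 0 not overlapping, a difference that was not tested. Over all genes 5.32% were higher without overlap. Cars, Hars, Lars, Mars, Nars, Rars, Vars and Wars had no matched promoter and are in neither group. They ran from -0.03 for Rars to 0.34 for Wars, and of them Cars and Mars did not overlap.

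Lars2, the mitochondrial leucine enzyme, was the most variable of the 39 genes in the OB set. It was at 734, 3287 and 183 FPKM in DMSO and at 755, 341 and 83.5 FPKM with compound OB, a log2 fold change of -1.45 ± 1.17 (SE). OB DMSO 2 was 4.35 times the next library, and the groups overlapped. The same library held 12380.25 FPKM of Rn45s, the precursor of ribosomal RNA, against 175 to 955 FPKM in the other 5, and 2069 FPKM of Rmrp, the RNA of the RNase MRP enzyme, against 11.3 to 51.5 FPKM. Among the other 5 the order of the 2 genes Lars2 and Rn45s was not the same. Compound OB 1 held 357 FPKM of Rn45s and 755 FPKM of Lars2, and compound OB 2 held 955 and 341 FPKM. Compound OB 3 was the lowest in both. Without OB DMSO 2 the log2 fold change of Lars2 was -0.39. In the PD set, where Lars2 was at 440.08, 405 and 431 FPKM in DMSO and 369, 375 and 521 FPKM with the compound, the libraries lay close together. Rn45s was not among the genes kept in the PD set, and the part of these RNAs in the Lars2 values was not tested. Lars, its cytosolic counterpart, was at 62.7, 94.7 and 108 FPKM in OB DMSO, below Lars2 in each of these libraries.

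**Figure D3:**
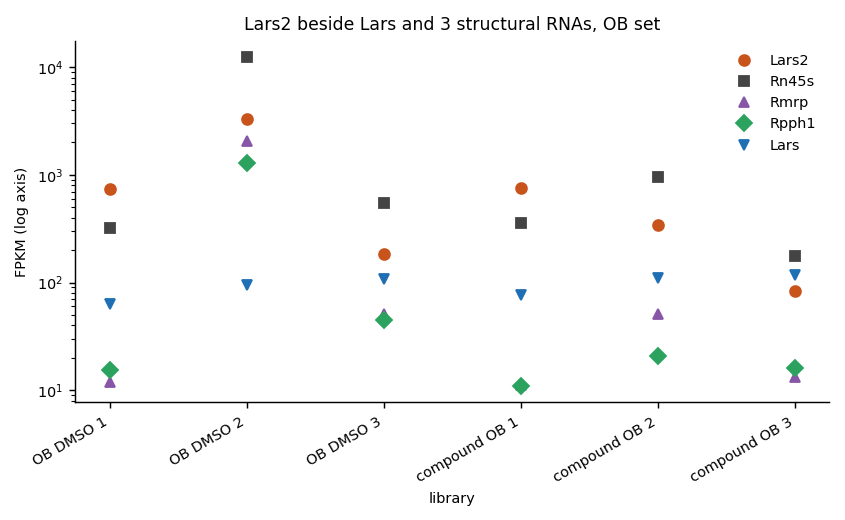
FPKM (log axis) of Lars2, its cytosolic counterpart Lars and the structural RNAs Rn45s, Rmrp and Rpph1 in the 6 libraries of the OB set, 1 point per library. In OB DMSO 2 Lars2 reaches 3287 FPKM together with the highest values of the 3 structural RNAs, while Lars stays at 94.7 FPKM.

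Compound PD. The same comparison for compound PD gave values on the other side of 0 for the cytosolic class: 17 of 20 genes had a log2 fold change below 0, with a median of -0.10 and a range from -0.39 for Aars to 0.05 for Vars. The 3 above 0 were Farsa, Kars and Vars. The mitochondrial enzymes had a median of 0.04 with 9 of 16 above 0, and the scaffold proteins a median of -0.03. Over all 11901 genes tested the median was 0.06 and 59.1% were above 0. None of the 39 genes passed the test, against 3 genes of the whole table (0.0252% called). None had an unadjusted p under 0.05 either, where 9.04% of all genes were higher and 1.61% lower. That count was 1 higher and 4 lower after median-ratio scaling, against 1333 of 11886 genes in either direction. After quantile normalization it was 1 higher, against 1294 of 11901 genes in either direction. The scaling moved the class values: after median-ratio scaling all 20 cytosolic genes were lower, with a median of -0.19, and the mitochondrial median turned to -0.05. Quantile normalization kept 17 of 20 cytosolic genes lower, with a median of -0.13, and gave the mitochondrial class -0.04.

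Aars was at 133, 93.2 and 128 FPKM in PD DMSO and at 81.7, 98.7 and 86.8 FPKM with compound PD. DMSO 2 lay among the treated libraries and the other 2 controls above them, a log2 fold change of -0.39 ± 0.18 (SE; limma, Benjamini-Hochberg adjusted p = 0.484). Eprs was at 78.0, 89.0 and 83.6 FPKM in DMSO and 64.3, 73.8 and 73.6 FPKM with the compound. All treated libraries were below all controls, and the log2 fold change was -0.24 ± 0.15 (SE; limma, adjusted p = 0.656).

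Yars was at 57.5, 77.3 and 86.4 FPKM in DMSO and 54.3, 61.2 and 67.0 FPKM with the compound. DMSO 1 lay inside the treated range and the other controls above it, at -0.26 ± 0.19 (SE). Gars was at 129, 154 and 159 FPKM in DMSO and 131, 132 and 129.8 FPKM with the compound. Its treated libraries were nearly level, and DMSO 1 was the only control below them, at -0.16 ± 0.14 (SE). Kars, the lysine enzyme, was at 69.8, 118 and 109 FPKM in DMSO and 99.7, 92.2 and 98.5 FPKM with the compound, inside the range of its controls, with a 95% interval of the log2 fold change from -0.46 to 0.47. Without PD DMSO 1 the log2 fold change was -0.42 for Yars, -0.25 for Gars and -0.22 for Kars. Without PD DMSO 3 it was -0.14 for Yars and -0.10 for Gars.

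Nars stood at the values given above in DMSO and at 125, 131 and 131 FPKM with compound PD, again with no overlap, and a log2 fold change of -0.20 ± 0.13 (SE). Eprs and Nars were the 2 of 39 genes that were lower without overlap, against 3.71% of all genes. After median-ratio scaling 7 of the 39 genes, all cytosolic, were lower without overlap, against 7.95% of all genes, and 1 was higher, against 10.1%. Sars was at 131, 145 and 159 FPKM with the compound, overlapping its controls, a log2 fold change of -0.23 ± 0.16 (SE), or -0.13 without PD DMSO 1.

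Of the mitochondrial enzymes, Vars2, for valine, was at 8.06, 15.6 and 12.6 FPKM in DMSO and 21.2, 15.9 and 16.2 FPKM with the compound. It was the 1 of 39 genes that was higher without overlap, against 13.1% of all genes, with a log2 fold change of 0.55 ± 0.25 (SE; limma, adjusted p = 0.477). Hars2, for histidine, was at 9.28, 12.8 and 19.8 FPKM in DMSO and 23.9, 19.5 and 15.1 FPKM with the compound. Its groups overlapped, with a log2 fold change of 0.49 ± 0.28 (SE). Without PD DMSO 1 these values were 0.31 for Vars2 and 0.25 for Hars2, and without PD DMSO 3 Hars2 was at 0.76.

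Fars2, for phenylalanine, was at 48.6, 34.8 and 43.1 FPKM in DMSO and 26.0, 34.9 and 37.7 FPKM with the compound. It overlapped as well, with a log2 fold change of -0.36 ± 0.20 (SE), or -0.20 without compound PD 1. The low-abundance genes had wide intervals: for Pars2 the log2 fold change was 0.34 (95% interval -0.53 to 1.21) and for Wars2 -0.12 (-0.76 to 0.52).

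PD DMSO 1 weighed on these values. It was the lowest of the 3 DMSO libraries in 33 of the 39 genes, against 61.8% of all genes. Without it all 20 cytosolic genes were lower with compound PD, with a median of -0.24, and the mitochondrial median was -0.14. The mitochondrial median was 0.16 without PD DMSO 2 and 0.18 without PD DMSO 3, with 11 of 16 above 0 in each. Without PD DMSO 1, 11 of the 39 genes were lower at an unadjusted p under 0.05, against 9.96% of all genes, and none was called, against 1.38%. Without PD DMSO 2 the cytosolic median was -0.03, with 8 genes higher and 12 lower. As given above, the sums of granulocyte, of macrophage and of endothelial and stromal markers were higher with compound PD without overlap. The erythroid sums were lower without overlap, and the mast cell and megakaryocyte sums overlapped. The part of these cell types in the synthetase values was not tested.

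**Figure D4:**
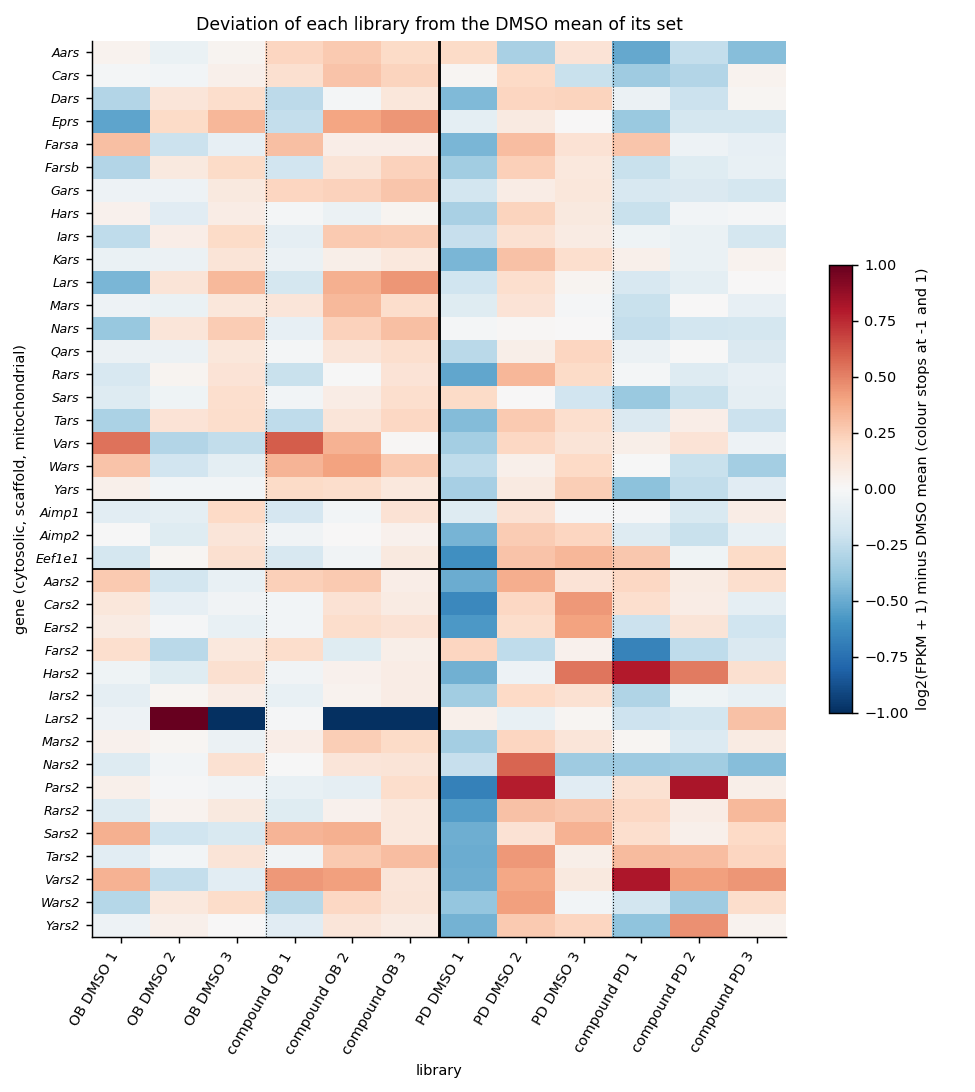
Difference of each library from the DMSO mean of its own set in log2(FPKM + 1), with genes in rows by class, 12 libraries in columns and the colour scale stopped at -1 and 1. Replicates 1 of both OB groups resemble each other, PD DMSO 1 is the lowest control in 33 of 39 genes, and Lars2 spreads past the colour scale in the OB set.

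The balance between the 2 compartments was also read within each library on log2(FPKM) without a pseudocount, where a scaling factor of the library cancels (a scale chosen after seeing the data). The mean of the cytosolic enzymes exceeded that of the mitochondrial ones without Lars2 by 2.76, 2.94 and 2.97 in OB DMSO and by 2.89, 2.92 and 2.96 with compound OB, so these groups overlapped. It did so by 3.21, 2.77 and 2.87 in PD DMSO and by 2.73, 2.70 and 2.76 with compound PD. There all 3 treated libraries were below all 3 controls, the highest of them only just. The means were 2.95 ± 0.23 and 2.73 ± 0.03 (SD, n = 3), and PD DMSO 1 was the farthest of the controls.

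Paired by amino acid, the cytosolic enzyme had the higher log2 fold change in 12 of 17 pairings with compound OB, with 1 equal, and in 4 of 17 with compound PD. Leaving out Lars and Lars2 these counts were 11 of 16 and 4 of 16. These values are on log2(FPKM + 1), which shows too small a change for low genes. Except for Lars2, the mitochondrial enzyme had the lower DMSO mean in each pairing, so small gaps and ties hold on this scale only. With compound OB the gap was 0.32 for Wars against Wars2 and -0.20 for Sars against Sars2, and Vars and Vars2 were equal at 0.32. With compound PD the gap was -0.58 for Hars against Hars2 and -0.54 for Aars against Aars2, and on the other side 0.40 for Farsa and 0.22 for Farsb against Fars2.

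**Figure D5:**
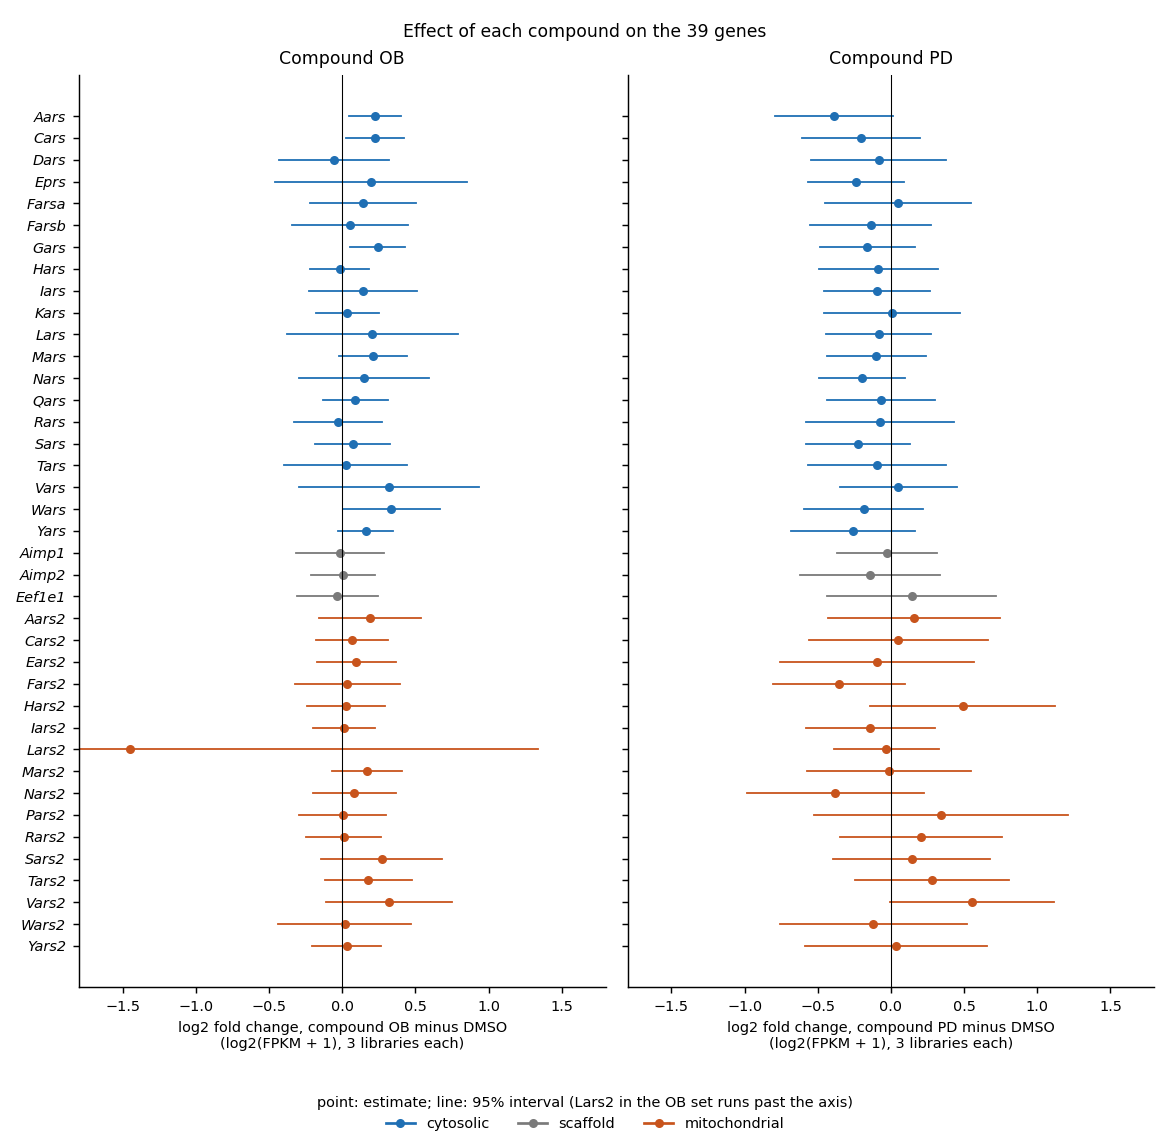
Log2 fold change of each of the 39 genes with compound OB (left) and compound PD (right) against their own DMSO controls, with points for estimates, lines for 95% intervals and colours for the class. Blue cytosolic points lie mostly right of 0 on the left panel (17 of 20) and mostly left of 0 on the right panel (17 of 20), and most intervals include 0.

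Difference between the compounds. In 1 fit of all 12 libraries the effect of compound PD minus that of compound OB was below 0 for all 20 cytosolic enzymes, with a median of -0.28 and a range from -0.61 to -0.03. The mitochondrial median was -0.03, with 7 of 16 above 0, and over all 10352 genes tested in both sets the median was 0.02 with 53% above 0. No gene was called (0%) among the 39 or elsewhere by limma with Benjamini-Hochberg adjustment. At an unadjusted p under 0.05, 3 of the 39 were lower, against 1.68% of all genes, and 0 higher, against 5.72%. They were Aars at -0.61 ± 0.20 (SE; adjusted p = 0.449), Wars at -0.52 ± 0.23 and Gars at -0.40 ± 0.16. Cars followed at -0.43 and Yars, for tyrosine, at -0.42. With the replicate block 5 of the 39 had an unadjusted p under 0.05 (Eprs, Aars, Gars, Yars and Nars), all lower, against 2.57% of all genes, and the smallest adjusted p was 0.290.

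All 20 cytosolic enzymes stayed below 0 under both scalings, both other pseudocounts and both other filters. When each of the 12 libraries was left out in turn, all 20 stayed below 0 in 6 cases. The other cases kept 14 without PD DMSO 2, 16 without OB DMSO 1, 17 without PD DMSO 3, 17 without compound OB 3, 18 without compound PD 2 and 19 without OB DMSO 2. Compound, dose and set go together here, so a difference between the compounds cannot be told apart from a difference between the sets in cells or handling.

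Other genes of the pathway gave a frame for these values, from lists chosen with earlier results known. Other genes of tRNA maturation and charging (15 tested) had a median log2 fold change of 0.03 with compound OB, 10 above 0, and 0.00 with compound PD, 8 of 16 above 0, with none called. Without PD DMSO 1 the latter was -0.16, and without PD DMSO 2 it was 0.14. The former was -0.02 without OB DMSO 1 and 0.11 without OB DMSO 3. In the OB set Pus1, which makes pseudouridine in tRNA, had an unadjusted p under 0.05, at 52.7, 48.2 and 46.2 FPKM in DMSO and 58.4, 64.3 and 61.2 FPKM with the compound.

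Elongation factors (10 genes), which carry charged tRNA to the ribosome and move it along, had a median of 0.06 with compound OB and -0.13 with compound PD, none called. Without PD DMSO 1 the latter was -0.31, with all 10 genes below 0, and without PD DMSO 3 it was -0.09. The former was 0.11 without OB DMSO 3. Eef2k, the kinase that restrains the factor Eef2, was at 18.2, 15.8 and 16.4 FPKM in OB DMSO and 23.8, 29.3 and 25.7 FPKM with compound OB. All 3 treated libraries were higher, a log2 fold change of 0.61 ± 0.11 (SE; limma, adjusted p = 0.494).

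Genes of the amino acid response (33 of 35 tested in the OB set) had a median of 0.28 with compound OB, 30 above 0 and 3 below, and 10 were higher at an unadjusted p under 0.05, none called without the block. All genes gave 58.7% above 0 and 2.45% at that p, as above. With the block 22 of the 33 were higher at that p, against 9.84%. In that fit Slc7a3, a transporter of basic amino acids, was called higher (limma, adjusted p = 0.0172), from 1.22, 2.35 and 4.38 FPKM in DMSO to 8.38, 12.7 and 14.7 FPKM. Trib3, a pseudokinase induced by ATF4, went from 92.9, 91.3 and 99.3 FPKM to 127, 122 and 124 FPKM with no overlap, a log2 fold change of 0.39 ± 0.08 (SE; adjusted p = 0.548, and 0.0914 with the block).

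Of the upstream genes, Atf4 was at 381, 464 and 487 FPKM in OB DMSO and 459, 504 and 526 FPKM with compound OB, overlapping. Eif2ak4 was at 7.57, 7.66 and 7.62 FPKM and then 7.89, 8.97 and 8.35 FPKM, with no overlap and a log2 fold change of 0.12 ± 0.10 (SE). Asns, which makes asparagine, and Ddit3, a factor of the stress response, had log2 fold changes of 0.17 ± 0.21 and 0.16 ± 0.11 (SE), each with overlap. Without OB DMSO 1 Asns was at -0.05 and Atf4 at 0.06.

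With compound PD the amino acid response list had a median of -0.16, with 27 genes below 0 and 6 above, 2 at an unadjusted p under 0.05 (Ppp1r15a and Mthfd2, both lower) and none called. Without PD DMSO 1 the median was -0.03, with 14 above 0 and 20 below, and without compound PD 1 it was -0.06, with 12 above 0. Asns was at 239.9, 262 and 240.0 FPKM in PD DMSO and 182, 213 and 206 FPKM with the compound. The groups did not overlap, with a log2 fold change of -0.30 ± 0.14 (SE; limma, adjusted p = 0.473). Atf4 was at 419, 320.4 and 349 FPKM and then 308, 318 and 296 FPKM, also without overlap, a log2 fold change of -0.23 ± 0.14 (SE), or -0.12 without PD DMSO 1. Trib3, Ddit3 and Eif2ak4 overlapped, at -0.13 ± 0.34, -0.27 ± 0.24 and -0.07 ± 0.26 (SE). Trib3 turned to 0.25 without PD DMSO 1 and 0.14 without compound PD 1, where Ddit3 was at 0.00, and Eif2ak4 turned to 0.10 without PD DMSO 3. The difference of the effects (PD minus OB) had a median of -0.48 over this list, with 29 of 34 genes below 0, where 53% of all genes were above 0. At an unadjusted p under 0.05, 10 of the 34 were lower, against 1.68% of all genes, and none was called.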

How the data were processed

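RNA was measured in 12 libraries. The authors deposited FPKM values with 2 decimals for each library. The submitters' processing notes name STAR and the build mm10. Which tool made the FPKM values, with which annotation, and whether strand was used is not given in the sources used here. Of the 38 genes found in the RefSeq annotation of GRCm38.p6, 17 overlap another annotated gene (Hars and Hars2 share 4 bases), so their values are uncertain. The series' 2 chromatin samples are not analysed here.

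In the OB set 24054 genes were listed per library, and 27 names turned into dates and 380 names split at a hyphen were left out. In the PD set 54752 were listed, and 27 dates and 93 repeats of a symbol were left out. Groups were compared with limma 3.58.1 (robust, with a trend in the variance; R 4.3.3, statmod 1.5.0). The scale was log2(FPKM + 1), on which low genes show too small a change, and genes averaging under 1 FPKM were left out. Two-sided p-values received Benjamini-Hochberg adjustment over all genes tested, and 0.05 was the threshold. The compounds were compared in 1 fit of 12 libraries with 4 group means. Fits were tested on simulated data. Depth is unknown, so the SD over 3 libraries is the precision of a value.

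Whether replicate numbers pair the libraries was checked by correlating deviations from the group means across genes. Same-numbered OB libraries gave 0.83, 0.43 and 0.65. Number 1 stood clear, but numbers 2 and 3 were barely told apart. DMSO 2 gave 0.41 with compound OB 3, and DMSO 3 gave 0.33 with compound OB 2. Deviations from a group mean cancel out within the group, so number 1 standing apart pushes numbers 2 and 3 the same way under any numbering. These values therefore do not show that numbers 2 and 3 are pairs. The main fits, and every SE given without mention of a block, left the replicate number out, and the block was an alternative. Alternatives changed the pseudocount, the filter, the scaling, the moderation, the block and the libraries included.

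The 39 genes, the lists and the tests were chosen with earlier results of these data known. Genes named were those called, otherwise the 5 with the smallest p in each comparison, the 3 highest and 3 lowest in PD DMSO, and any with 1 library above 3 times the next. In the other lists, genes called were named, up to 4, and always Atf4, Eif2ak4, Asns, Trib3 and Ddit3. Others named were chosen after their values were seen. Cell type markers were 12 of erythroid progenitors, 10 of neutrophils and granulocyte precursors (such as Mpo, Elane, Ltf and Lcn2), 8 each of hepatocytes, macrophages, mast cells with basophils (such as Mcpt8 and Cpa3), and megakaryocytes (such as Pf4 and Itga2b), and 6 each of lymphoid and of endothelial and stromal cells. Figures were drawn with matplotlib 3.10.9 under Python 3.11.15 (numpy 2.4.6, pandas 2.3.3).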

Additional observations from a re-analysis of the deposited data

How the results depend on the processing

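No member was called with all libraries and no block, so the alternatives could only add calls among the 16 named values. They did so 3 times in 298, for Gars, Aars and Wars with the replicate block and without both OB libraries numbered 1. That fit takes the libraries numbered 2 and 3 as pairs, which was not shown. The members called lower stayed at 0 in every alternative of the 3 comparisons, and those called higher did so for compound PD and the difference. Members called higher with compound OB numbered 0 when single libraries were left out, and 0 to 6 when the block was added and a replicate number left out. The cytosolic median for compound OB ran from 0.0108 to 0.18 and the mitochondrial median of the difference from -0.28 to 0.11 when libraries were left out.

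Counts over all genes moved more. For compound OB, 0 genes were called higher and 0 lower. The replicate block gave 4 and 3, a pseudocount of 5 gave 1 lower, and the block with median-ratio scaling, chosen after seeing the data, gave 63 and 42. Leaving out single libraries gave 0 to 13 higher and 0 to 1 lower. With the block, leaving out replicates 1, 2 or 3 gave 963, 71 or 2 higher and 163, 76 or 1 lower. For compound PD, 1 was called higher and 2 lower. The block gave 36 and 5, a filter at 5 FPKM gave 2 higher, a pseudocount of 5 gave 0 lower, and either scaling gave 1 lower. Without a filter, and with the block and median-ratio scaling together, both counts were 0. Limma without trend and robust moderation gave 0 and 0. Leaving out single libraries gave 0 to 129 higher and 0 to 36 lower, the highest of both without PD DMSO 1. With the block, leaving out replicates 1, 2 or 3 gave 164, 46 or 52 higher and 38, 24 or 30 lower. For the difference, 0 and 0 became 1 and 2 with a pseudocount of 0.1, 7 and 3 with one of 5, and 3 higher without a filter. Leaving out libraries gave 0 to 8 and 0 to 7.

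In the PD set same-numbered libraries did not deviate together (-0.01, -0.03 and -0.02), so they share only a number, and no library correlated best with its own. The block there left the members at 0 called. Depth is unknown in both sets, and 3 libraries a group limit what can be called.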
